A study of Mus musculus with 23 samples.

Results

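The early response of circulating immature myeloid cells to 2 different tumours was compared gene by gene. For each gene the log2 change from day 0 to day 4 of tumour growth was taken within the CT26 model and within the B16 model, and the CT26 change was subtracted from the B16 change. Both tables hold the same 24421 genes. Of these, 10847 had a mean of at least 5 normalized counts over the day 0 and day 4 libraries of each model and were tested, 1197 reached that mean in B16 alone, 400 reached it in CT26 alone, and 11977 stayed under it in both. The CT26 tumours, of a colon carcinoma line, grew in BALB/c mice, and the B16 tumours, of a melanoma line, in C57BL mice. The cells, labelled both as immature myeloid cells and as MDSCs (myeloid-derived suppressor cells), were separated from peripheral blood with magnetic beads, and their polyadenylated RNA was sequenced. The comparison used 11 of the 23 libraries of the series. These were 3 of CT26 day 0, 3 of CT26 day 4, 3 of B16 day 0 and 2 of B16 day 4, whose labels carry the numbers 1 and 3. The labels give no age or sex of the mice, do not say whether a day 0 mouse had already been injected, and mention no mice without tumours at day 4. The sources call the libraries biological repeats and say no more about separate animals, so p-values measure the spread between these libraries.

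Immature myeloid cells of mouse blood are mostly neutrophils and monocytes that leave the bone marrow before they are fully mature. A growing tumour releases cytokines and growth factors that act on the marrow and the blood, and interferons, NF-kB and STAT3 are among the pathways through which myeloid cells respond. Beads enrich a population without making it pure, so transcripts of B cells, eosinophils, platelets and red cell precursors can be measured beside those of myeloid cells. In such bulk samples fewer cells of a type and less RNA per cell cannot be told apart. Tumour line, mouse strain and the table in which the libraries were normalized are the same split, so their contributions to a model difference cannot be told apart either.

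The libraries held 1.07e+07 to 1.08e+07 normalized counts at CT26 day 0, 1.14e+07 to 1.20e+07 at CT26 day 4, 1.35e+07 to 1.38e+07 at B16 day 0 and 1.39e+07 to 1.42e+07 at B16 day 4. A normalized count is a number of reads divided by 1 size factor per library, and because each model was normalized on its own, levels are read within a model only. The calgranulin genes S100a8 and S100a9, abundant in neutrophils and monocytes, took between 2.13% and 3.19% of each library. A few libraries stood apart. B16 day 0 replicate 3 held 44613 normalized counts of interferon-gamma induced GTPase genes against 13025 and 14119 in the other B16 day 0 libraries. B16 day 4 replicate 1 held 168829 of platelet genes against 60014 in replicate 3, and 3516 of photoreceptor genes against 22494. The ribosomal RNA precursor gene Rn45s took 2.57% to 3.10% of the B16 day 0 libraries and 0.475% to 0.538% of the B16 day 4 libraries, against 0.636% to 0.770% and 0.343% to 0.416% in CT26.

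The day 4 change differed between the models in 2281 of the 10847 genes (21.0%) by limma's moderated test at a Benjamini-Hochberg adjusted p of 0.05. The change was more positive in B16 for 1259 genes (11.6%) and more positive in CT26 for 1022 (9.42%). These are called higher in B16 and lower in B16 from here on, always for the change and never for the level. Taken alone, CT26 changed in 1741 genes (16.1%), with 978 up (9.02%) and 763 down (7.03%). B16 changed in 4129 (38.1%), with 2302 up (21.2%) and 1827 down (16.8%). The median size of a log2 change was 0.209 in CT26 and 0.342 in B16. After scaling all libraries to an equal total, 1570 genes were higher and 740 lower in B16, so that 68.0% of the called genes were higher against 55.2% as normalized by the authors, while the median difference over all genes moved from 0.02 to 0.09.

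**Figure D1:**
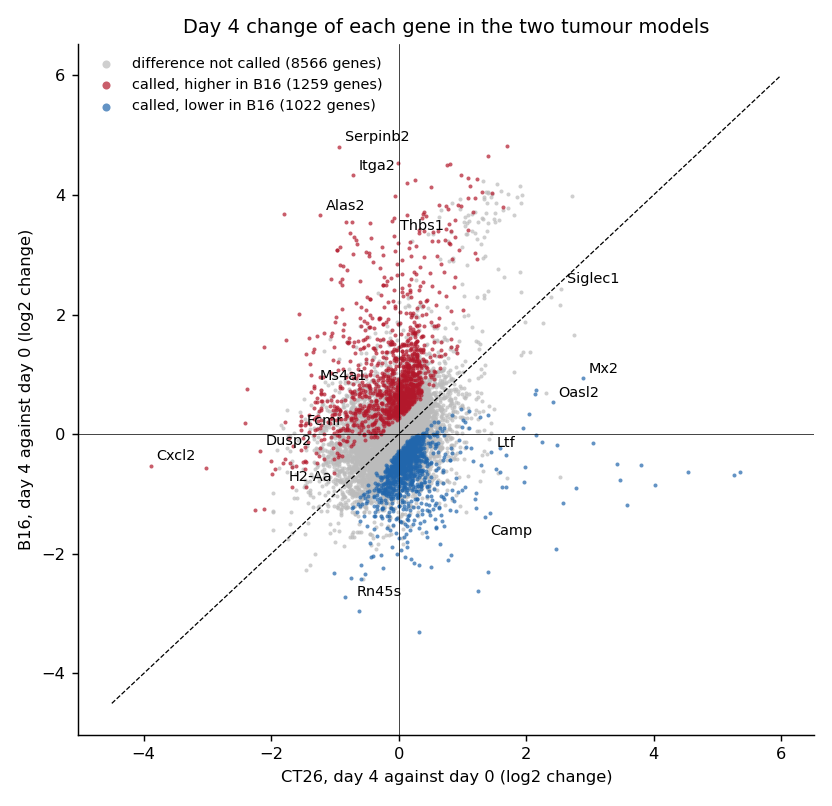
Each point is 1 of the 10847 tested genes, with its log2 change from day 0 to day 4 in CT26 on the horizontal axis and in B16 on the vertical axis; equal changes lie on the dashed line. The 1259 genes called higher in B16 lie mostly above the horizontal axis, the 1022 called lower mostly below it, and Cxcl2 (-3.89 in CT26) lies far to the left on the CT26 axis.

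Most of the called differences lay in genes whose own change was called in B16 alone, which does not show that CT26 was unchanged. Serpinb2, for example, fell in CT26 without overlap of the days but was not called there (limma, adjusted p = 0.181). With a variance factor for each model, 2306 genes were called at CT26 day 4 against 1741, and 3543 at B16 day 4 against 4129. Of the 1259 genes higher in B16, by these calls 855 had risen in B16 only, 165 had fallen in CT26 only, 108 had risen in both, 49 had fallen in CT26 and risen in B16, 20 had fallen in both, and 62 had passed the test in neither model. Of the 1022 genes lower in B16, 691 had fallen in B16 only, 143 had risen in CT26 only, 69 had risen in CT26 and fallen in B16, 47 had fallen in both, 5 had risen in both, and 67 had passed in neither. A further 623 genes passed in the same direction in both models with no call for the difference, 401 up and 222 down. Across genes, which are not independent replicates, the CT26 and B16 changes had a Pearson r of 0.273 and a Spearman rank correlation of 0.294, described without a test. The median standard error of a difference was 0.216. A call needed a difference well above its standard error. Fech just passed at 0.57 ± 0.19 (limma, adjusted p = 0.0453), and Mmp19 did not pass at 1.94 ± 0.79 (limma, adjusted p = 0.0961). A gene at the median standard error therefore needed a difference well above 0.216 to be called, and smaller differences could be missed with these libraries.

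Cxcl2 and many immediate early genes fell further in CT26, while NF-kB genes as a list were called about as often as all genes. Cxcl2 (chromosome 5, 90903871 to 90905938, plus strand), a chemokine that attracts neutrophils, stood at 740.2, 635 and 598 normalized counts in the CT26 day 0 libraries and at 37.3, 49.3 and 43.8 at day 4. In B16 it stood at 165, 120 and 139 at day 0 and at 112 and 83.8 at day 4. The days did not overlap in either model, and the CT26 libraries lay much further apart. The log2 change was -3.89 ± 0.16 in CT26 and -0.53 ± 0.18 in B16, a difference of 3.36 ± 0.24 with limma's adjusted p = 3.74e-06. The Cxcl2 promoter is shown because the gene had the largest called fall of the named genes in CT26 and carries a textbook NF-kB motif. It spans chr5:90903649-90903948 on the plus strand of GRCm38.p6, from 250 bases before to 50 bases after the start in RefSeq, and capitals mark matches on either strand to GGG, any 2 bases and TTTCC, which begin 97 and 78 bases before the start.
Cxcl2: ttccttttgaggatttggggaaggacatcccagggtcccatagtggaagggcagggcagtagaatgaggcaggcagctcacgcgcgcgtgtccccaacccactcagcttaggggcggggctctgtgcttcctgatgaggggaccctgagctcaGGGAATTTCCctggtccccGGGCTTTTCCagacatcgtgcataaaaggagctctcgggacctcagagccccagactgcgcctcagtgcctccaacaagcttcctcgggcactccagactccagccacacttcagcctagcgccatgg
This motif was found in 1.63% of 32851 RefSeq promoter windows of the same length, and in 8 of the 21 genes of the NF-kB list below that had a window. A match is a description of these letters and not of a bound site.

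Of 27 tested NF-kB cytokine and feedback genes, 7 were higher in B16 and 0 lower, with a median difference of 0.11 against 0.02 over all genes. The share called was 25.9%, near the 21.0% of all genes. In CT26, 7 of them rose and 13 fell, and in B16, 6 rose and 9 fell. Nfkbiz (chromosome 16, 55811375 to 55838899, minus strand), a nuclear IkappaB protein that modifies NF-kB target genes, stood at 3455, 3944 and 3548 at CT26 day 0 and 1883, 1997 and 1988 at day 4. Its B16 values were 1221, 1191 and 1187 at day 0 and 1457 and 1406 at day 4. It fell in CT26 (-0.90 ± 0.06) and rose in B16 (0.26 ± 0.07), with no overlap between the days of either model, and the difference was 1.15 ± 0.09 (limma, adjusted p = 1.41e-05). Osm, which encodes the cytokine oncostatin M, fell in CT26 from 2225, 2132 and 1866 to 856, 988 and 912. The B16 values of Osm were 1783, 1869.5 and 1840 at day 0 and 1934 and 1534 at day 4, which overlapped. The Osm difference was 1.08 ± 0.14 (limma, adjusted p = 0.000266).

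Of 27 tested immediate early and stress genes, which cells switch on within minutes of a stimulus, 12 were higher in B16 and 2 lower, with a median difference of 0.37. The share called was 51.9%, against 21.0% of all genes. In CT26, 20 fell and 1 rose, with a median change of -0.59. In B16, 11 fell and 4 rose, with a median of -0.43. Plk3 (chromosome 4, 117128655 to 117133963, minus strand), a stress-response kinase, stood at 1008, 1113 and 977 at CT26 day 0 and 282, 248 and 245 at day 4. The B16 libraries held 728, 716 and 663 and 551 and 476. Both models fell without overlap of the days, by log2 -1.998 ± 0.09 in CT26 and -0.45 ± 0.10 in B16, and the difference was 1.54 ± 0.13 (limma, adjusted p = 1.9e-05). Dusp2, a phosphatase that switches off MAP kinases, went from 335, 339.6 and 269 to 55.4, 71.5 and 80.6 in CT26. Dusp2 in B16 stood at 182, 143 and 143 and then 134 and 122, a log2 change of -0.27 ± 0.18 (limma, adjusted p = 0.244) against -2.18 ± 0.16 in CT26. Ier3, an early response gene linked to survival, fell in CT26 (-0.68 ± 0.10) and rose in B16 (0.29 ± 0.11), a difference of 0.97 ± 0.14 (limma, adjusted p = 0.000781). In edgeR on recovered reads, with 1 CT26 day 4 library, 4 members of the list were higher and 1 lower.

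**Figure D2:**
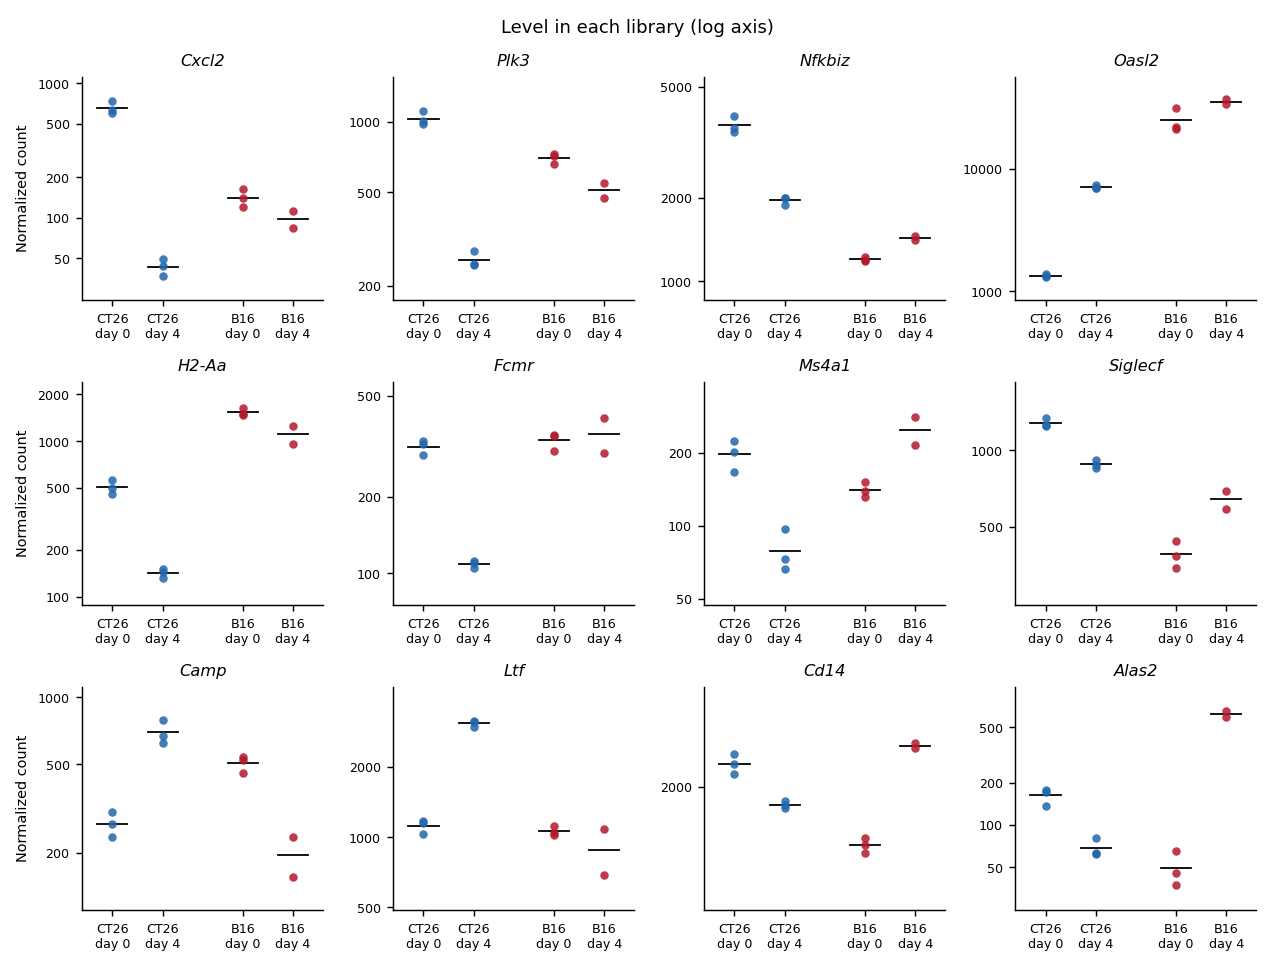
Normalized counts of 12 genes in each library on log axes, CT26 in blue and B16 in red, with a point for each library and a bar at the group mean. Cxcl2 dropped from 598 or more to 49.3 or less in CT26 while its B16 libraries moved from 120 or more to 112 or less, and Camp moved up in CT26 and down in B16; levels are not comparable between the models.

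B cell transcripts and the MHC class II genes that B cells and other antigen-presenting cells share fell in CT26 and fell less or not at all in B16. Of 17 tested B cell markers, 16 fell in CT26 and 0 rose, with a median log2 change of -1.40. In B16, 5 fell and 1 rose, with a median of -0.15. The difference was called higher in B16 for 11 and lower for 0, with a median of 1.00. That is a share of 64.7%, against 21.0% of all genes. All 10 tested MHC class II presentation genes fell in CT26, with a median of -1.54, and 5 of 10 fell in B16, with a median of -0.47. The difference was called higher in B16 for all 10, with a median of 1.10, against 11.6% of all genes. Over all genes, 7.03% fell in CT26 and 16.8% fell in B16. The summed level of the B cell markers was 9166, 9007 and 9446 at CT26 day 0 and 6747, 6563 and 6355 at day 4, and 12344, 12354 and 12024 at B16 day 0 and 11140.2 and 9252 at day 4. In each model, no day 4 sum reached the day 0 sums of that model. Since these lists move together and several MHC class II genes are B cell genes too, the part of B cell number in the MHC class II values was not tested.

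H2-Aa (chromosome 17, 34282744 to 34287823, minus strand), which encodes the alpha chain of the class II molecule I-A, stood at 564, 496 and 455 at CT26 day 0 and 131, 145 and 151 at day 4. In B16 the libraries held 1634, 1475 and 1502 and then 1252 and 963. Both falls were without overlap, -1.82 ± 0.11 in CT26 and -0.48 ± 0.12 in B16, and the difference was 1.33 ± 0.16 (limma, adjusted p = 0.000216). H2-Eb1 (chromosome 17, 34305867 to 34316674, plus strand), the beta chain of I-E, went from 520, 449.8 and 409 to 148, 149 and 130.3 in CT26. In B16 H2-Eb1 went from 1348, 1288 and 1325 to 1062 and 774, and the difference was 1.14 ± 0.18 (limma, adjusted p = 0.000963). Cd74, the invariant chain that guards the class II groove, changed by -1.30 ± 0.10 in CT26 and -0.32 ± 0.11 in B16, a difference of 0.98 ± 0.15 (limma, adjusted p = 0.000781). H2 genes differ between mouse strains and have near-identical relatives, so reads can be placed differently in BALB/c and C57BL. The class II promoters are shown because the whole list moved together. Both are from RefSeq on GRCm38.p6, at chr17:34287774-34288073 on the minus strand for H2-Aa and chr17:34305617-34305916 on the plus strand for H2-Eb1. Capitals mark the Y box letters CTGATTGG or their complement, which begin 51 bases before the start in H2-Aa and 62 in H2-Eb1.
H2-Aa: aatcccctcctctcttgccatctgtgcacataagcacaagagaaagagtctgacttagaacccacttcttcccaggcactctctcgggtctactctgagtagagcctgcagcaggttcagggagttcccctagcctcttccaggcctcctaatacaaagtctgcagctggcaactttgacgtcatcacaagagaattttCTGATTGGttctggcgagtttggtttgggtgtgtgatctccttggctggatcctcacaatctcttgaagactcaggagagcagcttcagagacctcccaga
H2-Eb1: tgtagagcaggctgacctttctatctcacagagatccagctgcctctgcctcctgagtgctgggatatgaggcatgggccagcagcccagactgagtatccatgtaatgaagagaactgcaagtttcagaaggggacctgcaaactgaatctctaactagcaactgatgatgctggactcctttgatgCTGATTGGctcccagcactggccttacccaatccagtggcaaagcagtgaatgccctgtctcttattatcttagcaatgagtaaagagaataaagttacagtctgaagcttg
The letters stand in 4.10% of the 32851 windows and in 3 of the 7 MHC class II genes that had a window.

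Among B cell markers, Fcmr (chromosome 1, 130865669 to 130880791, plus strand), the receptor for the Fc part of IgM, stood at 333, 292 and 321 at CT26 day 0 and 109.9, 112 and 104 at day 4. Its B16 libraries held 347, 349.7 and 304 and 408 and 297, which overlapped. The difference was 1.59 ± 0.18 (limma, adjusted p = 0.000127). Ms4a1 (chromosome 19, 11249675 to 11266241, minus strand), which encodes CD20, fell in CT26 from 202, 224 and 166 to 65.9, 72.5 and 96.5 and rose in B16 from 139, 151 and 131 to 281 and 216. The difference for Ms4a1 was 2.14 ± 0.25 (limma, adjusted p = 0.000139). Fcer2a, the low-affinity IgE receptor CD23, had changes of -1.71 ± 0.16 in CT26 and -0.06 ± 0.18 in B16 and a difference of 1.65 ± 0.25 (limma, adjusted p = 0.000821). Ccr7, a homing receptor of lymphocytes and dendritic cells, was listed with dendritic cell genes and not with B cell markers. Of 7 tested dendritic cell genes it was the only 1 called, and their median difference was -0.27. Ccr7 fell from 98.2, 82.9 and 93.5 to 39.2, 34.2 and 35.8 in CT26. In B16 Ccr7 stood at 122.6, 133 and 110.4 and 216 and 146, and its difference was 1.84 ± 0.25 (limma, adjusted p = 0.00038). With B16 day 4 replicate 1 left out, 6 B cell and 7 MHC class II genes were called higher in B16, and edgeR on recovered reads called 5 and 4.

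Eosinophil markers moved apart as well. Of 12 tested, 6 fell and 3 rose in CT26, and 2 fell and 4 rose in B16. The difference was higher in B16 for 5 and lower for 1, with a median of 0.70, a share of 50% against 21.0% of all genes. Gata1, a gene of megakaryocytes and red cells too, was among the 5 with a difference of 4.06. Siglecf (chromosome 7, 43351341 to 43359531, plus strand), a sialic acid receptor of eosinophils, stood at 1254, 1246 and 1338 at CT26 day 0 and 878, 855 and 916 at day 4. In B16 it moved the other way, from 383, 441 and 343 to 589 and 693, and the days did not overlap in either model. The difference was 1.26 ± 0.14 (limma, adjusted p = 0.000119). Ccr3, the eotaxin receptor, fell from 2948, 2796 and 3012 to 1345, 1551 and 1730.4 in CT26. In B16 Ccr3 overlapped between the days, at 61.9, 85.1 and 64 and 71.6 and 75.1, with a difference of 1.00 ± 0.18 (limma, adjusted p = 0.00219). Adgre1, which encodes F4/80 and is expressed by macrophages and eosinophils, changed by -1.07 ± 0.08 in CT26 and 0.19 ± 0.09 in B16, a difference of 1.26 ± 0.12 (limma, adjusted p = 5.06e-05). It was listed with tissue macrophage genes and not with eosinophil markers. Of 5 tested tissue macrophage genes, 1 was higher and 1 lower in B16, with a median difference of 0.04. Of 3 tested basophil and mast cell genes, 1 was higher in B16, Kit, the stem cell factor receptor (2.73 ± 0.69, adjusted p = 0.0138), a call that ended without B16 day 4 replicate 1 (2.30, adjusted p = 0.0801). The median difference of these 3 was 2.73.

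The type I interferon response rose in both models by similar amounts over the whole list. Of 36 tested genes, 32 rose in CT26 and 29 in B16, and 0 fell in either, with median changes of 0.75 and 0.79. The difference was called lower in B16 for 5 and higher for 3, a share of called genes near that of all genes (22.2% against 21.0%). The summed level of the list was 71825, 71802 and 71129.8 at CT26 day 0 and 128823, 127299 and 127482 at day 4. In B16 it was 115308, 118269 and 177241 at day 0, where replicate 3 was the highest, and 212312 and 240491 at day 4. Without B16 day 0 replicate 3 the counts were 9 higher and 6 lower.

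The members that differed most rose further in CT26. Oasl2 (chromosome 5, 114896936 to 114912234, plus strand), a relative of the antiviral 2'-5' oligoadenylate synthetases, stood at 1327, 1368 and 1307 at CT26 day 0 and 7047, 6992 and 7363 at day 4. In B16 it held 21302, 22013 and 31879 and then 34248 and 37133. With no overlap of the days, the rises of 2.42 ± 0.11 and 0.53 ± 0.13 differed by -1.88 ± 0.17 (limma, adjusted p = 3.29e-05). Mx2 (chromosome 16, 97535308 to 97560900, plus strand), an antiviral GTPase, rose from 18.6, 14.6 and 13.9 to 115, 122.8 and 129 in CT26. In B16 Mx2 rose from 12.4, 18.5 and 11 to 32.1 and 22.7, and the difference was -1.96 ± 0.37 (limma, adjusted p = 0.00279). Oas1g (chromosome 5, 120876142 to 120887613, minus strand), an oligoadenylate synthetase gene with close paralogs beside it, went from 156, 132 and 113 to 584, 633 and 558 in CT26. The B16 libraries of Oas1g held 429.7, 424 and 786 and 797 and 880, and the difference was -1.47 ± 0.29 (limma, adjusted p = 0.00367). The Oas1g promoter, at chr5:120887564-120887863 on the minus strand of GRCm38.p6 in RefSeq, is shown as that of a member that rose in both models to different degrees. Capitals mark 2 overlapping matches on either strand to GAAA, any 2 bases and GAAA, the core of the interferon-stimulated response element, 18 and 12 bases before the start.
Oas1g: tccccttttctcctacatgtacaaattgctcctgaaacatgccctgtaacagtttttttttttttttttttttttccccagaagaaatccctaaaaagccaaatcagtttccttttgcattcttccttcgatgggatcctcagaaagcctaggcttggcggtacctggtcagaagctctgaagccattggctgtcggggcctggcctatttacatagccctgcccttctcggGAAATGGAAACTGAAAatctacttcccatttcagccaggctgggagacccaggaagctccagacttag
This motif stands in 3.44% of the 32851 windows and in 14 of the 25 list members that had a window. Zbp1 and Eif2ak2, a nucleic acid sensor and the kinase PKR, were the other 2 members lower in B16, and Isg20, Oasl1 and Ifih1 were the 3 higher; these 5 are named because their calls were seen.

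**Figure D3:**
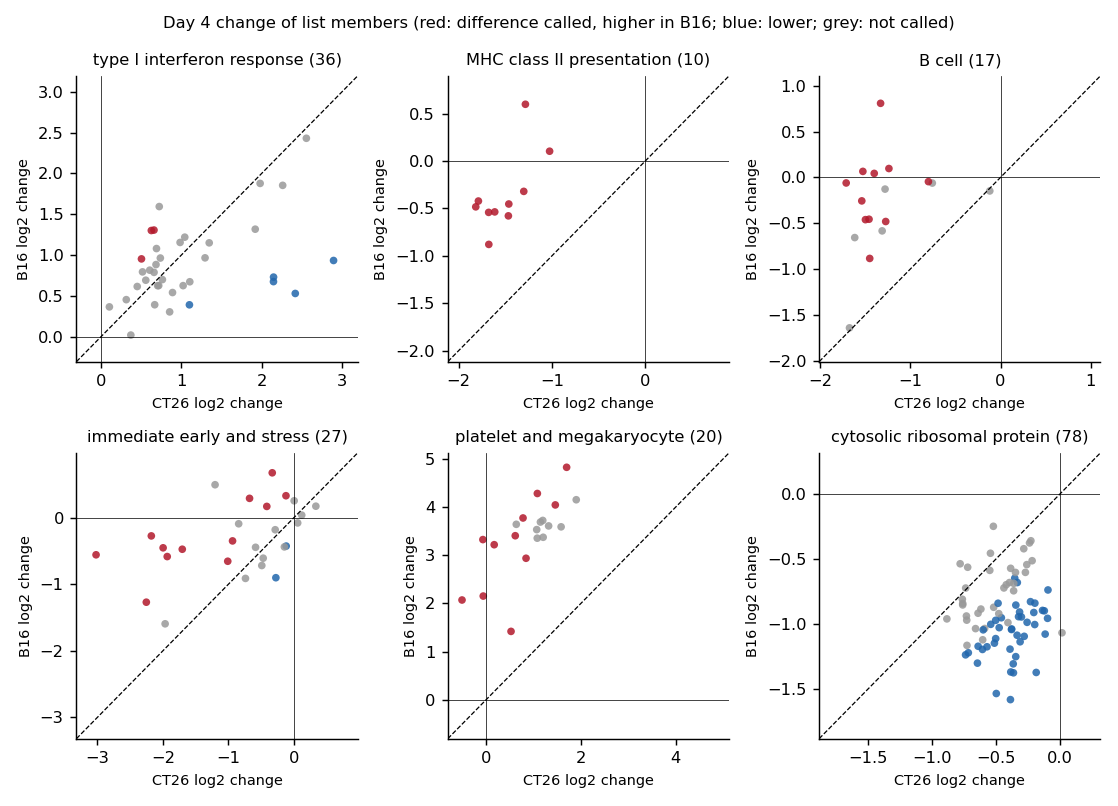
Log2 change from day 0 to day 4 in CT26 (horizontal) and in B16 (vertical) of each tested member of 6 gene lists, with the number of members in parentheses; the dashed line marks equal changes. Type I interferon genes spread around the line, MHC class II and B cell genes lie left of it with CT26 medians of -1.54 and -1.40, platelet genes lie above it, and cytosolic ribosomal protein genes lie mostly below it.

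Interferon-gamma induced GTPases and MHC class I genes rose in CT26, and their B16 values depended on 1 library. Of 13 tested GTPases, 7 rose in CT26 and 1 in B16, with medians of 1.08 and -0.08, and 2 were lower in B16. That share of 15.4% called in the difference was under the 21.0% of all genes. Gbp4 (chromosome 5, 105115767 to 105139586, minus strand), a guanylate-binding protein, stood at 35.4, 31 and 36.8 at CT26 day 0 and 73.6, 106 and 107 at day 4. In B16 it stood at 96.6, 96.4 and 481 at day 0, the last of these replicate 3, and at 66.1 and 64.6 at day 4, a difference of -2.76 ± 0.68 (limma, adjusted p = 0.0123). Gbp6 had a difference of -2.57 ± 0.77 (limma, adjusted p = 0.0308), a call that ended when any 1 of 7 libraries was left out, up to an adjusted p of 0.087. Without B16 day 0 replicate 3, 8 GTPases rose in B16 with a median of 0.51, 12 rose in CT26, and 5 were lower in B16 with a median difference of -0.73, against -1.44 with it.

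Of 14 tested MHC class I genes, 7 rose and 0 fell in CT26, 3 rose and 2 fell in B16, and 6 were lower in B16, with a median difference of -0.52. The difference was thus called in 42.9% of them, against 21.0% of all genes. Nlrc5 (chromosome 8, 94434356 to 94527272, plus strand), the transactivator of class I genes, rose from 141, 188 and 156 to 484, 477 and 597 in CT26. In B16 Nlrc5 overlapped between the days, at 653, 599.9 and 1759 and 682 and 712, with replicate 3 of day 0 again the highest. Its difference was -2.02 ± 0.44 (limma, adjusted p = 0.00666). H2-D1, a classical class I heavy chain, rose from 19811, 17385 and 17269 to 25792, 26575 and 23816 in CT26 and overlapped in B16, at 70913, 69739 and 82679 and 68135 and 75475. The differences were -0.54 ± 0.12 for H2-D1 (limma, adjusted p = 0.00939) and -0.72 ± 0.20 for H2-K1 (limma, adjusted p = 0.021). The H2-K1 call ended without CT26 day 4 replicate 2 or B16 day 4 replicate 1 (-0.61, adjusted p = 0.0979). Without B16 day 0 replicate 3, 7 class I genes were lower and 2 higher in B16, and edgeR on recovered reads called 0.

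Genes of neutrophil granules split between the models. Of 19 tested secondary and tertiary granule genes, 10 rose and 1 fell in CT26 and 9 rose and 1 fell in B16, yet 4 were higher and 3 lower in B16. That is a share of 36.8%, against 21.0% of all genes. If B16 day 4 replicate 1 was left out, 4 were higher and 6 lower. Camp (chromosome 9, 109847379 to 109849617, minus strand), the cathelicidin stored in secondary granules, rose in CT26 from 306, 236 and 269 to 624, 790.1 and 670.3. In B16 it fell from 520.1, 456 and 538 to 236 and 156. The days did not overlap in either model, and the changes of 1.36 ± 0.15 and -1.39 ± 0.16 differed by -2.75 ± 0.22 (limma, adjusted p = 1.41e-05). Ltf (chromosome 9, 111019271 to 111042767, plus strand), lactoferrin, rose in CT26 from 1152, 1169 and 1029 to 2951, 3097 and 3131. In B16 Ltf overlapped, at 1023, 1039.9 and 1113 and 1078 and 685, and the difference was -1.75 ± 0.18 (limma, adjusted p = 8.53e-05). Ltb4r1 (chromosome 14, 55765962 to 55768494, plus strand), the receptor for the neutrophil attractant leukotriene B4, overlapped in CT26, at 968, 844 and 867 and 851, 843 and 796. Ltb4r1 rose in B16 from 691, 719.9 and 719 to 1551 and 1347, a difference of 1.13 ± 0.11 (limma, adjusted p = 6.26e-05). Of the 5 tested primary granule and promyelocyte genes, Serpinb1a (1.05 ± 0.19) and Ctsc (0.94 ± 0.26) were higher in B16 and Prtn3 (-1.37 ± 0.44) lower (limma, adjusted p = 0.00219, 0.0225 and 0.0404). Without B16 day 4 replicate 1 the Ctsc call ended (0.62, adjusted p = 0.138), as did the Prtn3 call (-1.13, adjusted p = 0.174), and other libraries left out singly also ended them.

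Some genes of suppressor cells had more positive changes in B16, as did single genes of cytokine signalling whose list as a whole did not shift. Of 18 tested suppressor cell effectors, 7 were higher in B16 and 0 lower, with a median difference of 0.23. Their share called was 38.9%, against 21.0% of all genes. Tgfb1 (chromosome 7, 25687002 to 25705077, plus strand), an immunosuppressive cytokine, overlapped in CT26, at 4331, 4741 and 5029 and 5051, 4681 and 4359. It rose in B16 from 2609, 2535 and 2578 to 4727 and 3999, and the difference was 0.76 ± 0.12 (limma, adjusted p = 0.000963). Hif1a (chromosome 12, 73901375 to 73947530, plus strand), the oxygen-sensing transcription factor, rose in CT26 from 1026, 1129.9 and 1057 to 1593, 1476 and 1540.4. Hif1a rose further in B16, from 702, 746 and 872 to 1709 and 1877, a difference of 0.70 ± 0.12 (limma, adjusted p = 0.00208). Arg2, the mitochondrial arginase, rose by 0.21 ± 0.06 in CT26 and 0.74 ± 0.07 in B16, a difference of 0.52 ± 0.10 (limma, adjusted p = 0.00269). Leaving out B16 day 4 replicate 1 gave the list 5 higher and 1 lower, and edgeR on recovered reads called 0 of it.

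Of 23 tested genes of the G-CSF, GM-CSF, IL-4 and IL-1 receptors with STAT3 and STAT5, 13 rose in CT26 and 14 in B16, and 6 were higher and 1 lower in B16. The share called was 30.4%, against 21.0% of all genes. The median difference of this list was 0.01, against 0.02 over all genes, and edgeR on recovered reads called 0 of it. Socs3, the feedback inhibitor of STAT3 signalling, stood at 10925, 11284 and 11053 and 12865, 12810.4 and 12486 in CT26, a change that was not called (limma, adjusted p = 0.0642). In B16 Socs3 rose from 8665, 9083 and 9245 to 13516 and 16504, a difference of 0.53 ± 0.10 (limma, adjusted p = 0.00325). The receptor kinases Jak2 and Jak1 had differences of 0.51 ± 0.09 and 0.45 ± 0.09 (limma, adjusted p = 0.00204 and 0.00339). Of 22 chemotaxis and adhesion receptors, 7 were higher and 3 lower in B16, a share of 45.5% against 21.0% of all genes. Itgb1, an integrin beta chain that platelets also carry, was higher (1.84 ± 0.32, adjusted p = 0.00184). Cxcr1, a chemokine receptor of neutrophils, was lower (-0.87 ± 0.12, adjusted p = 0.000473), having risen in CT26 from 242, 228 and 247 to 468, 474 and 484.

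Of 21 mature neutrophil markers and 20 classical monocyte markers, 2 were higher and 2 lower in each list, shares of 19.0% and 20% against 21.0% of all genes. The median change of the neutrophil list was 0.32 in CT26 and 0.28 in B16. The monocyte list had a median of 0.35 in CT26, and in B16 its median of 0.37 rested on unlike libraries, being -0.03 without B16 day 4 replicate 1 and 0.61 without replicate 3. The monocyte counts were then 1 higher and 3 lower, and 2 higher and 1 lower. Steap4 (chromosome 5, 7960457 to 7982213, plus strand), a metalloreductase of neutrophils, rose in CT26 from 10392, 10938 and 10127 to 16002, 15348 and 14937. In B16 Steap4 rose from 2948, 3308 and 4553 to 10835 and 9865, a difference of 0.99 ± 0.18 (limma, adjusted p = 0.00208). Trem1, an amplifier of inflammatory signals, was higher in B16 by 0.45 ± 0.09 (limma, adjusted p = 0.00343). Cd14, the lipopolysaccharide co-receptor of monocytes and neutrophils, fell in CT26 from 2369, 2249 and 2137 to 1793, 1859 and 1821 and rose in B16 from 1485, 1424 and 1539.8 to 2497 and 2441. Its difference was 1.04 ± 0.09 (limma, adjusted p = 1.9e-05), and the days did not overlap in either model. Ly6c2, which marks classical monocytes and has near-identical relatives, was lower in B16 by -0.999 ± 0.32 (limma, adjusted p = 0.0391), a call that ended without B16 day 4 replicate 3 (-0.77, adjusted p = 0.136) or any 1 of 5 CT26 libraries.

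Platelet and megakaryocyte genes were among the largest rises in B16. Of 20 tested, all 20 rose in B16, with a median of 3.56, against 21.2% of all genes that rose there. In CT26 the change was called in 0 of them, with a median of 1.07. The difference was called higher in B16 for 11, with a median of 2.53, a share of 55% against 21.0% of all genes. The summed level was 7558, 5778 and 21294 at B16 day 0 and 168829 and 60014 at day 4. In CT26 it was 4120.4, 3922 and 3939.7 at day 0 and 3259, 6389.6 and 10399 at day 4. The B16 days did not overlap, the CT26 days did, and the libraries of 1 day lay several-fold apart at both models' day 4. Thbs1 (chromosome 2, 118111876 to 118127133, plus strand), thrombospondin of platelet granules, stood at 307, 256 and 615 at B16 day 0 and 6546 and 2041 at day 4. In CT26 Thbs1 overlapped, at 164, 192 and 205 and 112, 190.2 and 264, and the difference was 3.39 ± 0.60 (limma, adjusted p = 0.00204). Itgb3, the fibrinogen receptor beta chain, had a difference of 2.58 ± 0.40, and Rgs18, a regulator of G-protein signals in platelets, one of 2.21 ± 0.35 (limma, adjusted p = 0.000966 and 0.00103). The number of platelet genes called was 19 without B16 day 0 replicate 3, 5 without B16 day 4 replicate 1 and 3 in edgeR on recovered reads, where the CT26 median was -0.17.

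The 10 largest positive differences included Itga2 and Gata1, genes known from megakaryocytes among other cells. Serpinb2 (chromosome 1, 107511423 to 107535478, plus strand), an inhibitor of plasminogen activators, had the largest, 5.74 ± 0.68 (limma, adjusted p = 0.000178). It stood at 0, 2.05 and 3.31 at B16 day 0 and 99.1 and 42.8 at day 4, and at 75.2, 67.4 and 87.5 and 41.1, 43.3 and 34.8 in CT26. The days did not overlap in either model. Itga2, the collagen receptor alpha chain of platelets, went from 2.48, 1.03 and 2.21 to 130.3 and 23.6 in B16, and from 58.4, 86.5 and 91.5 to 50.6, 37.2 and 53.7 in CT26, a difference of 5.05 ± 0.71 (limma, adjusted p = 0.000542). Gata1, the transcription factor of red cells, megakaryocytes and eosinophils, stood at 16.1, 10.3 and 51.9 and 344 and 104 in B16. In CT26 Gata1 stood at 259, 210.3 and 259 and 100.3, 129 and 157, and the difference was 4.06 ± 0.72 (limma, adjusted p = 0.00208). Aldh1a1 (4.54), Csrp1 (4.38), Pkp4 (4.27), Bmp2 (4.13) and Lrrc8b (4.08) followed, an aldehyde dehydrogenase, a LIM protein, a plakophilin, a growth factor and a subunit of a volume-regulated channel. All but Pkp4 were highest in B16 day 4 replicate 1, the library with the higher platelet sum, and the Lrrc8b call ended without it (3.28, adjusted p = 0.0887). In CT26, Serpinb2, Itga2 and Gata1 all stood lower at day 4 without overlap, while the platelet list had a median change of 1.07. The part of platelet RNA in all of these values was not tested.

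**Figure D4:**
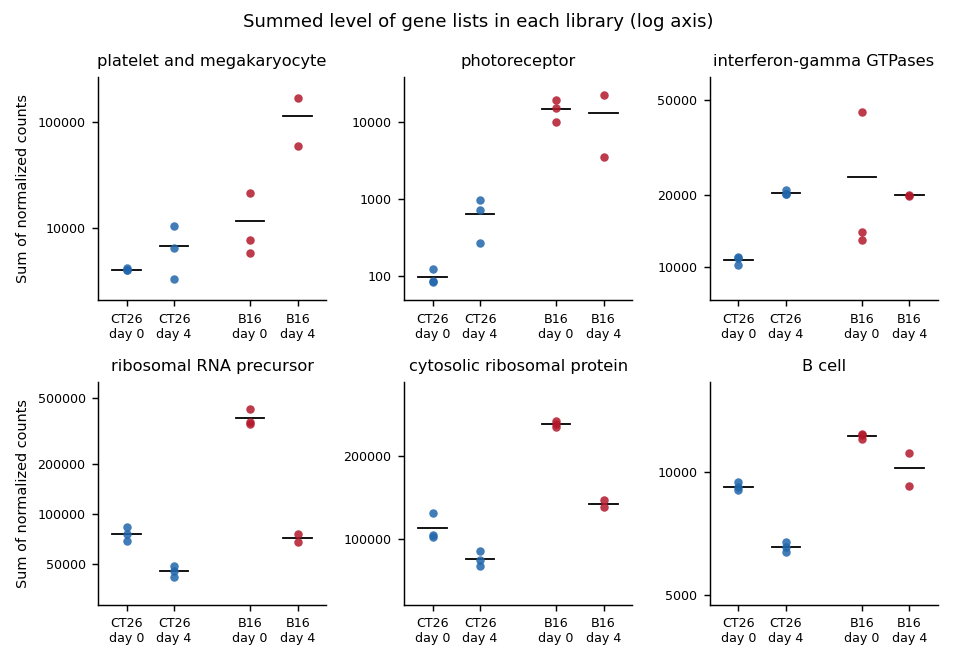
Sum of the normalized counts of 6 gene lists in each library on log axes, CT26 in blue and B16 in red, with a point for each library and a bar at the group mean. B16 day 4 replicate 1 is the upper point of the platelet panel (168829) and the lower point of the photoreceptor panel (3516), and B16 day 0 replicate 3 is the high point of the GTPase panel (44613); levels are not comparable between the models.

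The red cell genes Alas2 and Bpgm rose in B16 with little spread between the day 4 libraries. Alas2 (chromosome X, 150547375 to 150570638, plus strand), the erythroid enzyme that starts haem synthesis, stood at 37.1, 65.6 and 45.3 at B16 day 0 and 649 and 594 at day 4. In CT26 it fell from 173, 177 and 137 to 81.2, 63.4 and 61.7. The days did not overlap in either model, and the changes of 3.67 ± 0.22 and -1.23 ± 0.19 differed by 4.90 ± 0.29 (limma, adjusted p = 2.06e-06). Bpgm, the enzyme that makes the red cell metabolite bisphosphoglycerate, rose in B16 from 84.2, 85.1 and 83.9 to 257 and 266. In CT26 Bpgm stood at 72.5, 59.2 and 62.7 and 45.9, 41.3 and 49.7, a difference of 2.12 ± 0.21 (limma, adjusted p = 5.06e-05). Of 5 tested erythroid genes, 3 rose and 0 fell in B16, with a median change of 0.59. The difference was higher in B16 for 3 and lower for 0, a share of 60% against 21.0% of all genes. The third was Fech, the last enzyme of haem synthesis (0.57 ± 0.19, limma, adjusted p = 0.0453). The Fech call ended when any 1 of 8 libraries was left out, up to an adjusted p of 0.107. The other 11 of the 16 erythroid genes in the tables were under the filter and not tested.

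In 118 genes the models passed the test in opposite directions. The 8 with the largest smaller change were Sgce, Alas2, Pxdc1, Rgl1, Camp, Ptpn14, Tmem64 and Akap12, and Camp was the only 1 of these 8 that rose in CT26. Sgce (chromosome 6, 4674350 to 4747207, minus strand), a sarcoglycan, stood at 16.8, 10 and 11.9 and 1.91, 6.04 and 1.99 in CT26. It stood at 2.48, 6.15 and 11 and 108 and 67.2 in B16, a difference of 5.48 ± 0.74 (limma, adjusted p = 0.000411). Tmem64, a transmembrane protein, fell in CT26 from 137, 146 and 138 to 51.6, 57.4 and 55.7 and rose in B16 from 13.6, 8.2 and 13.2 to 31.2 and 31.4, a difference of 2.72 ± 0.30 (limma, adjusted p = 0.000124). The differences of Pxdc1, Rgl1, Akap12 and Ptpn14 were 3.57, 3.01, 2.93 and 2.79. The Ptpn14 call ended without B16 day 4 replicate 1 (2.22, adjusted p = 0.073). The number of genes called in opposite directions was 47 without CT26 day 4 replicate 1, 56 without CT26 day 0 replicate 2 and 61 without CT26 day 4 replicate 2, and 21 in edgeR on recovered reads.

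Photoreceptor genes, transcripts of the retina that blood cells are not known for, gave most of the 10 largest negative differences. Gnat1 (chromosome 9, 107674474 to 107679712, minus strand), the transducin alpha chain of rods, stood at 2.65, 0 and 2.98 at CT26 day 0 and 185, 122 and 34.8 at day 4. In B16 it stood at 2421, 1669 and 3231 at day 0 and 613 and 3538 at day 4. CT26 rose without overlap and the B16 days overlapped, with B16 day 4 replicate 1 the lowest and replicate 3 the highest of the B16 libraries. The difference was -5.94 ± 1.03 (limma, adjusted p = 0.00181), and -4.55 with a pseudocount of 5 (adjusted p = 0.00299). Of 11 tested photoreceptor genes, 8 rose in CT26, against 9.02% of all genes, and the B16 change was called in 0. The difference was lower in B16 for 8, with a median of -4.32, a share of 72.7% against 21.0% of all genes. The median difference was -2.82 without B16 day 4 replicate 1 and -5.88 without replicate 3. The median B16 change was then 0.59 and -2.08. Other genes of the retina among the 10 largest negative differences were Rbp3 (-5.18), Prph2 (-4.88), Pde6g (-4.77), Pde6b (-4.32), Pde6a (-4.23) and Nrl (-3.73). The summed level ran from 120.3, 82.9 and 85.6 at CT26 day 0 to 957, 714 and 263 at day 4, and from 15328, 10130.1 and 19439 at B16 day 0 to 3516 and 22494 at day 4. Without B16 day 4 replicate 3, 9 of 11 fell in B16 and 11 were lower, and edgeR on recovered reads called 0.

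Ifi202b, an interferon-inducible gene, was also among the 10. It stood at 54.8, 41.9 and 39.8 at CT26 day 0 and 210.2, 272 and 289 at day 4. In B16 it stood at 26, 1.03 and 0 at day 0 and was listed at 0 in both day 4 libraries. The fitted difference of -4.40 therefore depends on the pseudocount, and the call (limma, adjusted p = 0.0237) ended when any 1 of 4 libraries was left out, up to an adjusted p of 0.0669.

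Ribosomal protein genes fell in both models and further in B16. Of 78 tested cytosolic ribosomal protein genes, 60 fell in CT26 and 74 in B16, and 0 rose, with medians of -0.39 and -0.94. Over all genes, 7.03% fell in CT26 and 16.8% in B16. The difference was lower in B16 for 43 and higher for 0, with a median of -0.50, a share of 55.1% against 21.0% of all genes. With a block for the replicate number within each model, 29 were lower. In edgeR on recovered reads, with 1 CT26 day 4 library, the median difference was -0.43. Rplp2 (chromosome 7, 141447370 to 141451585, plus strand), a protein of the ribosomal stalk, stood at 3248, 3137 and 3367 at B16 day 0 and 1151 and 1369 at day 4. In CT26 Rplp2 overlapped, at 963, 795 and 755 and 684, 793 and 722, and the difference was -1.18 ± 0.14 (limma, adjusted p = 0.000216). Rpl38 and Rpl17, of the large subunit, had differences of -1.04 ± 0.13 and -0.96 ± 0.11 (limma, adjusted p = 0.000231 and 0.000119). The ribosomal RNA precursor Rn45s moved with them. It stood at 346423, 356482 and 427885 at B16 day 0 and 67302 and 75013 at day 4, and at 68052, 75694 and 82819 and 41168, 48553 and 44915 in CT26. Its difference was -1.65 ± 0.15 (limma, adjusted p = 3.14e-05). Poly-A libraries capture ribosomal RNA irregularly, and the part of RNA quality or library preparation in these values was not tested. Ribosomal protein genes have many processed pseudogenes, so some of their reads are uncertain.

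Genes of mitochondria were called no more often than all genes or about as often, at 9.33% and 21.6% for the lists that follow against 21.0%. Of 75 mitochondrial ribosomal protein genes, 28 fell and 1 rose in B16, 8 fell in CT26, and 6 were lower and 1 higher in B16. Mrps15 had a difference of -0.97 ± 0.13 (limma, adjusted p = 0.000347), with 797, 849 and 916 at B16 day 0 and 436 and 491 at day 4. Of 74 respiratory chain and ATP synthase genes, 42 fell and 2 rose in B16, 9 fell in CT26, and 13 were lower and 3 higher. If B16 day 4 replicate 1 was left out, 3 mitochondrial ribosomal protein genes were lower and 11 fell in B16, and 4 respiratory chain genes were lower and 25 fell in B16. Ndufb7 of complex I, Atp5e of the ATP synthase and Uqcrh of complex III had differences of -0.80 ± 0.12, -0.90 ± 0.14 and -0.81 ± 0.16 (limma, adjusted p = 0.000886, 0.001 and 0.00423). Of 34 constitutive proteasome genes only Psmd8, a lid subunit, was called (-0.46 ± 0.13, adjusted p = 0.0212), and it lost the call when any 1 of 4 libraries was left out, B16 day 4 replicate 1 (-0.44, adjusted p = 0.0747) among them.

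**Figure D5:**
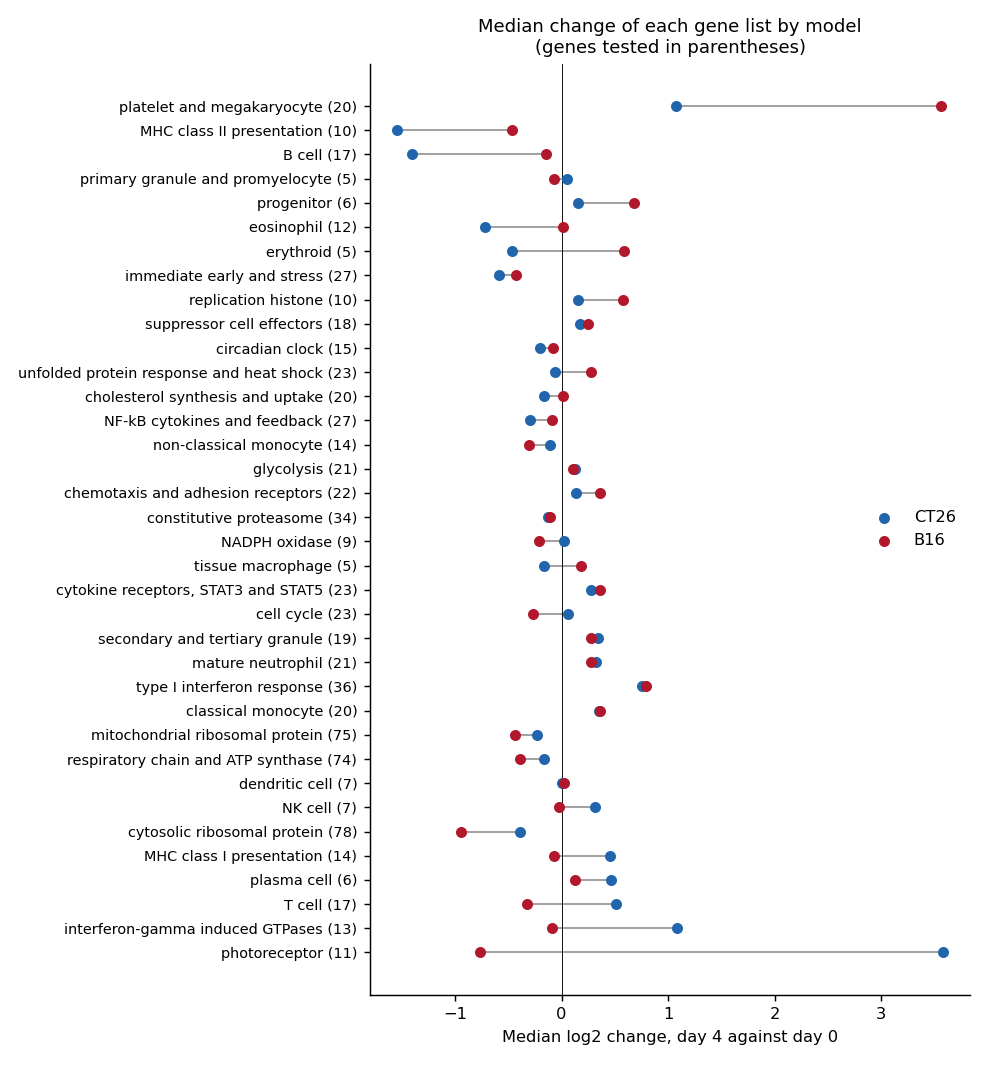
Median log2 change from day 0 to day 4 of each gene list with at least 5 tested genes in CT26 (blue) and B16 (red), with the number of tested genes in parentheses and lists ordered by their median difference. Platelet, MHC class II and B cell lists lie at the top, with medians of 3.56, -0.47 and -0.15 in B16 against 1.07, -1.54 and -1.40 in CT26, and the photoreceptor list lies at the bottom.

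Of 15 circadian clock genes, 3 were higher in B16 and 0 lower, a share of 20% against 21.0% of all genes. Per1 (chromosome 11, 69095217 to 69109960, plus strand), a repressor of the clock, fell in CT26 from 562, 725 and 799 to 348, 315 and 353 and rose in B16 from 659, 666 and 561 to 788 and 875. Its difference was 1.43 ± 0.18 (limma, adjusted p = 0.000237). Nfil3, a transcription factor of the clock and of immune cells, rose by 0.26 ± 0.06 in CT26 and 0.99 ± 0.07 in B16, a difference of 0.73 ± 0.09, and Arntl, the clock activator BMAL1, had one of 2.27 ± 0.46 (limma, adjusted p = 0.000237 and 0.00422). The labels give no hour at which blood was drawn, so the part of the time of day was not tested.

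Of 23 unfolded protein response and heat shock genes, 6 were higher in B16 and 1 lower, a share of 30.4% against 21.0% of all genes. Hspa5, the chaperone BiP, stood at 3797, 3525 and 3037 and 2827, 2982 and 2826 in CT26, which was not called, and rose in B16 from 2194, 2263 and 2097 to 2642 and 3206, a difference of 0.67 ± 0.13 (limma, adjusted p = 0.00343). Of 21 glycolysis genes, 3 were higher and 1 lower, a share of 19.0% against 21.0% of all genes. Eno1, an enolase, rose in B16 from 161, 147 and 127 to 345 and 391, and in CT26 stood at 382, 415 and 453 and 504, 498 and 519, a difference of 1.06 ± 0.16 (limma, adjusted p = 0.000781). Hk1, a hexokinase, had a difference of 1.01 ± 0.16 (limma, adjusted p = 0.00121). Of 20 cholesterol genes, 3 were higher, a share of 15.0%, and 1 was without B16 day 4 replicate 1. Srebf2, the transcription factor that switches on cholesterol synthesis genes, fell in CT26 from 459, 462 and 629.8 to 326, 333 and 318. In B16 the days of Srebf2 overlapped, at 374, 476 and 409.5 and 577 and 374, and the difference was 0.80 ± 0.23 (limma, adjusted p = 0.0272), a call that ended without B16 day 4 replicate 1 (0.49, adjusted p = 0.16) or any 1 of 5 other libraries. Of 10 tested replication histones, which poly-A libraries capture irregularly, 3 were higher, a share of 30%. Of 23 cell cycle genes, 1 was higher and 1 lower, a share of 8.7%. Of 9 NADPH oxidase genes, 1 was higher and 2 lower, a share of 33.3%.

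T cell, plasma cell and NK cell lists had negative median differences with few or no calls. Of 17 tested T cell genes, 3 were lower in B16 and 0 higher, a share of 17.6% against 21.0% of all genes. Their median change was 0.51 in CT26 and -0.32 in B16, and the median difference of -0.71 was -1.21 without B16 day 4 replicate 1, with 6 lower, and -0.18 without replicate 3, with 3 lower and 1 higher. In edgeR on recovered reads 0 were called. Cd3d, Cd3g and Cd4, parts of the T cell receptor complex and its co-receptor, had differences of -0.85 ± 0.19, -1.51 ± 0.34 and -2.22 ± 0.52 (limma, adjusted p = 0.00754, 0.00808 and 0.0101). Of 7 NK cell genes and 6 plasma cell genes 0 were called, with median differences of -0.30 and -0.62. If B16 day 4 replicate 1 was left out, 2 plasma cell genes were lower, with a median of -0.96. The plasma cell sum stood at 389, 330.5 and 321 at CT26 day 0 and 855, 1046 and 1288 at day 4. In B16 it overlapped, at 248, 269.7 and 313 and 407 and 235. Of 3 tested melanocyte genes, 1 was lower in B16, Mitf (-0.59 ± 0.15, adjusted p = 0.0162), a call that ended without B16 day 4 replicate 1 (-0.54, adjusted p = 0.0695). Of 3 epithelial genes 0 were called. For both the other 5 and 6 of the listed genes were under the filter.

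Other genes were called in the same direction in both models with no call for the difference. Siglec1 (chromosome 2, 131069220 to 131086765, minus strand), an interferon-induced sialic acid receptor of macrophages and monocytes, stood at 39.8, 59.2 and 80.6 at CT26 day 0 and 301, 312 and 429.6 at day 4. In B16 it rose from 16.1, 12.3 and 13.2 to 79.8 and 77.7. With no overlap of the days, the rises of 2.56 ± 0.23 and 2.43 ± 0.26 gave a difference of -0.13 ± 0.35 (limma, adjusted p = 0.827). Plxna4, Rbpms2 and Mmp19 rose in both as well, with differences of 1.27 ± 1.22, 2.10 ± 0.88 and 1.94 ± 0.79 that were not called and whose standard errors would hide a sizeable difference. The Mmp19 difference was called under 6 alternatives, among them a pseudocount of 5 (2.20, adjusted p = 0.023) and DESeq2 on recovered reads (3.18, adjusted p = 0.0224). The Rbpms2 difference was called under 3, a weight for each library (2.63, adjusted p = 0.0205) and leaving out B16 day 0 replicate 3 (2.79, adjusted p = 0.0156) or B16 day 4 replicate 3 (2.87, adjusted p = 0.0463). Lipg and H2-Q8 had differences of -0.09 ± 0.91 and -0.37 ± 0.63 (limma, adjusted p = 0.956 and 0.714), and the B16 days of Lipg overlapped.

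The calgranulins did not pass the test. S100a8 (chromosome 3, 90668978 to 90670035, plus strand) stood at 92258, 73330.3 and 62989.7 and 84146, 89481 and 78753 in CT26 and at 120053, 110352 and 111183 and 111622 and 111924 in B16. The days overlapped in both models, and the difference was -0.18 ± 0.16 (limma, adjusted p = 0.459). S100a9 had a difference of -0.13 ± 0.17 (limma, adjusted p = 0.645). Arg1 and Nos2, the arginase and nitric oxide synthase of suppressor cells, were under the filter and not tested. Arg1 was at most 4.42 normalized counts in any of the 11 libraries. Nos2 stood at 1.24, 3.08 and 14.3 at B16 day 0 and 54.1 and 23.6 at day 4, and at 0, 3.64 and 0.995 and 3.82, 1.01 and 9.94 in CT26, so its B16 days did not overlap.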

How the data were processed

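The deposited tables give, per the file headers, normalized counts of each gene, a signal made by the authors from reads. Among the tools listed in the submitters' processing notes are HTSeq 0.6.1p1 and TopHat2 2.0.10, besides cutadapt and DESeq2 1.6.3, with mm10 as the build and no statement of each tool's role. Strandedness is not given in the sources used here. All values of the 11 libraries were whole multiples of 1 step within 0.001, so they are reads divided by 1 factor per library, each model scaled on its own.

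Members and lists were chosen with earlier results of these data known. limma 3.58.1 in R 4.3.3 fitted log2(value + 1) with a trend and a mean for each of 4 groups, with 7 residual degrees of freedom, for genes whose mean reached 5 in both models. The contrast was the B16 change minus the CT26 change, 2-sided, with Benjamini-Hochberg adjustment. Fold changes on this scale understate the change of low genes. Lists were described by counts and medians and were not tested. The design had assumed read counts and named this test for normalized values.

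Named genes are the 10 largest called differences in each direction (a group mean of at least 20), 8 changed oppositely, 6 changed alike, up to 3 called members of each list, and S100a8, S100a9, Arg1 and Nos2. Small RNA and predicted genes were passed over, and 4 genes that the rule names are not reported here. Alternatives included edgeR 4.0.16, DESeq2 1.42.0 and limma-voom on recovered reads of 8 libraries. In CT26 day 0 replicate 3 and day 4 replicates 2 and 3 the step lies too near 1 for reads to be told from the deposited values, so those tests rest on 1 CT26 day 4 library, assumed to vary like the rest. The model was tested on simulated data. Positions come from GRCm38 gene models, where 122 of 124 named genes were found once, and promoters from RefSeq (GRCm38.p6). Reads of near-identical genes (H2, Oas, Ly6, Gbp, histone and ribosomal protein genes) cannot be placed with certainty. Python 3.11.15 and matplotlib 3.10.9 drew the figures.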

Additional observations from a re-analysis of the deposited data

Results flagged for a closer look

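Each gene below was called in the test of the difference itself, the B16 change minus the CT26 change from day 0 to day 4 (limma, Benjamini-Hochberg adjusted p of 0.05 over 10847 genes). Values are that difference on the log2(value + 1) scale, positive where the change was more positive in B16. In all, 114 named genes were called, 84 of them under every setting other than the tests on 8 libraries and 37 under every setting.

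The largest positive differences were 5.74 in Serpinb2, 5.48 in Sgce, 5.05 in Itga2, 4.90 in Alas2, 4.54 in Aldh1a1, 4.38 in Csrp1, 4.27 in Pkp4, 4.13 in Bmp2, 4.08 in Lrrc8b and 4.06 in Gata1. The largest negative ones included -5.94 in Gnat1, -5.18 in Rbp3, -4.88 in Prph2, -4.77 in Pde6g, -4.40 in Ifi202b, -4.32 in Pde6b, -4.23 in Pde6a and -3.73 in Nrl. Without B16 day 4 replicate 1 the difference of Nrl was -2.16 (adjusted p = 0.15), and its call also ended without any 1 of 4 other libraries. Of the genes called in opposite directions in the 2 models, Pxdc1 differed by 3.57, Rgl1 by 3.01, Camp by -2.75, Ptpn14 by 2.79, Tmem64 by 2.72 and Akap12 by 2.93.

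Interferon and MHC class I genes differed by -1.88 in Oasl2, -1.96 in Mx2, -1.47 in Oas1g, -2.76 in Gbp4, -2.57 in Gbp6, -2.02 in Nlrc5, -0.54 in H2-D1 and -0.72 in H2-K1. MHC class II and B cell genes differed by 1.33 in H2-Aa, 0.98 in Cd74, 1.14 in H2-Eb1, 1.59 in Fcmr, 2.14 in Ms4a1 and 1.65 in Fcer2a. Activation and NF-kB genes differed by 1.54 in Plk3, 1.90 in Dusp2, 0.97 in Ier3, 3.36 in Cxcl2, 1.15 in Nfkbiz and 1.08 in Osm. In Nr4a1 the difference was 0.36, and it was 0.29 (adjusted p = 0.0634) without B16 day 4 replicate 3 and not called without CT26 day 0 replicate 2.

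Suppressor cell and granule genes gave 0.76 in Tgfb1, 0.70 in Hif1a, 0.52 in Arg2, 1.13 in Ltb4r1, -1.75 in Ltf, 1.05 in Serpinb1a, 0.94 in Ctsc and -1.37 in Prtn3. NADPH oxidase genes gave -0.44 in Cyba and 0.40 in Rac1, and without B16 day 4 replicate 1 Cyba (-0.35) and Rac1 (0.23) were not called. The Rac1 call ended when most libraries were left out singly. Glycolysis genes gave 1.06 in Eno1, 1.01 in Hk1 and 0.43 in Slc2a1, and without B16 day 4 replicate 3 Slc2a1 was not called (0.36, adjusted p = 0.0712). Cytokine signalling genes gave 0.51 in Jak2, 0.53 in Socs3 and 0.45 in Jak1, and receptor genes -0.87 in Cxcr1 and 1.84 in Itgb1.

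In cell cycle genes Ccnd1, a G1 cyclin, differed by 1.57 and the mitotic motor Kif11 by -1.62. Ccnd1 was not called without B16 day 4 replicate 1 (1.49), nor Kif11 without replicate 3 (-1.17). The Ccnd1 call also ended without CT26 day 0 replicate 2 (1.38, limma, adjusted p = 0.0511). The Kif11 call ended when most libraries were left out singly, and with the same total in every library (-1.55, limma, adjusted p = 0.0539). Chaperone genes differed by 0.72 in Dnajb9, 0.67 in Hspa5 and 0.53 in Hspa8, and clock genes by 1.43 in Per1, 0.73 in Nfil3 and 2.27 in Arntl. Cholesterol genes differed by 0.80 in Srebf2 and 1.301 in Nsdhl, whose call ended when most libraries were left out singly. With B16 day 4 replicate 1 left out, neither Srebf2 (0.49, adjusted p = 0.16) nor Nsdhl (1.05, adjusted p = 0.199) was called.

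Neutrophil and monocyte markers differed by 0.99 in Steap4, 0.45 in Trem1, 1.04 in Cd14, -0.27 in Psap, -0.999 in Ly6c2, 1.43 in Cd9 and -0.97 in Eno3. For Psap the call ended when most libraries were left out singly, B16 day 4 replicate 1 among them (-0.25). It also ended with all days in 1 fit (-0.27, limma, adjusted p = 0.163). Eosinophil genes differed by 1.26 in Siglecf and 1.00 in Ccr3, and the stem cell factor receptor gene Kit by 2.73, which was 2.30 (adjusted p = 0.0801) without B16 day 4 replicate 1. T cell genes differed by -0.85 in Cd3d, -1.51 in Cd3g and -2.22 in Cd4. Platelet and red cell genes differed by 2.58 in Itgb3, 2.21 in Rgs18, 3.39 in Thbs1, 2.12 in Bpgm and 0.57 in Fech. Differences of other cell type markers were 1.84 in Ccr7, 1.26 in Adgre1, -0.43 in Apoe, -1.84 in Ly6a and -0.59 in Mitf. Apoe was not called with all days in 1 fit (-0.43, limma, adjusted p = 0.574) or when most libraries were left out singly. For Apoe the call ended without B16 day 4 replicate 1 (-0.34, adjusted p = 0.134), and for Ly6a without B16 day 4 replicate 3 (-1.69, adjusted p = 0.0532).

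The ribosomal genes differed by -1.65 in Rn45s, -0.96 in Rpl17, -1.18 in Rplp2 and -1.04 in Rpl38. Genes of mitochondria and the proteasome differed by -0.97 in Mrps15, -0.75 in Mrpl14, -0.83 in Mrps16, -0.80 in Ndufb7, -0.90 in Atp5e, -0.81 in Uqcrh and -0.46 in Psmd8. Histone genes differed by 0.92 in Hist1h1c, 1.42 in Hist3h2a and 3.36 in Hist1h4m, of which Hist3h2a (1.21) and Hist1h4m (2.73) were not called without B16 day 4 replicate 1. The Hist1h4m call ended when most libraries were left out singly, and with a pseudocount of 0.5 (3.62, limma, adjusted p = 0.0782).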

How the results depend on the processing

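All 2281 called genes kept their sign in every alternative run in which they were tested, but the number past the threshold moved. The difference was called in 566 genes by edgeR (215 higher in B16, 351 lower), 814 by DESeq2 (397 and 417) and 415 by limma-voom (137 and 278), each on the recovered reads of 8 libraries with 1 of CT26 day 4. With 1 library left out it ranged from 1277 to 2467 (708 to 1395 higher, 569 to 1099 lower), lowest without B16 day 4 replicate 1. At CT26 day 4 the count was 3340 with a weight for each library, 298 in edgeR, 727 in DESeq2, 327 in limma-voom and 950 to 2041 with 1 library left out. At B16 day 4 it was 2715 to 4217 with 1 library left out. Opposite calls numbered 272 with library weights, 21, 40 and 20 in edgeR, DESeq2 and limma-voom, and 47 to 171 with 1 library left out. The cause of these moves was not tested beyond the fewer libraries. Other pseudocounts, filters and scalings left these counts within 1.5 times.

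A replicate block within each model called 1136 genes (691 higher, 445 lower), 894 at CT26 day 4 and 38 in opposite directions. The deviations of same-numbered libraries from their group means had correlations of -0.085, -0.075 and 0.002 in CT26 and -0.086 and -0.179 in B16. Deviations within such small groups are tied to each other, so these correlations cannot decide whether the numbers pair the libraries. Of the named genes, 19 lost their call under the block.

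Only differences that were not called changed sign. With 1 library left out, Siglec1 ranged from -0.37 to 0.13, Lipg from -0.99 to 0.81, H2-Q8 from -0.90 to 0.16 and S100a9 from -0.28 to 0.0052. Lipg was 0.66 with a pseudocount of 5 and 0.79 with library weights, and S100a9 was 0.022 in edgeR, 0.046 in DESeq2 and 0.012 in limma-voom. Without B16 day 4 replicate 1, 21 named genes lost their call. B16 day 4 has 2 libraries, and the effect of depth was not tested.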
